A study of Mus musculus with 4 samples.

Results

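The Bcl-2 family decides whether a cell under stress opens its mitochondria and dies. Its transcripts were followed here in tumors of autophagy-deficient kidney epithelial cells labelled as expressing p62 fused to EGFP, or EGFP alone. The genes were 10 by name: the pro-survival Bcl2, Bcl2l1, Bcl2l2 and Mcl1, the pore-forming effectors Bax, Bak1 and Bok, and the BH3-only genes Bid, Bad and Bcl2l11. A probe set, a group of short oligonucleotides on the array that together read 1 transcript, was taken if the array annotation gave it exactly 1 gene symbol and that symbol was on the list. This gave 27 of 22626 probe sets, covering 9 of the 10 genes. Bax had no probe set that met the rule and was not analysed here.

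RNA came from 4 tumors, all grown under the skin of nude (NCR Nu/Nu) mice after injection of cells of an immortalized mouse epithelial line, iBMK. The cells of 2 tumors expressed p62-EGFP, the selective autophagy adaptor p62 fused to the fluorescent protein EGFP; the cells of the other 2 tumors expressed EGFP alone. Both groups are labelled ATG5-/-, a deletion of the autophagy gene Atg5, and as expressing Bcl-2, so a pro-survival member of the family under study was supplied to every tumor. The labels give the p62-EGFP and EGFP lines as isogenic and do not give the promoter or species of the Bcl-2 construct, the number of clones, the sex or age of the mice, or whether each tumor came from its own mouse. Nude mice lack a thymus and keep NK cells, B cells and myeloid cells.

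Each tumor was read on 1 Affymetrix Mouse Genome 430A 2.0 array, and values are signals in arbitrary units on a linear scale. The median signal lay between 57.7 and 60.9 on the 4 arrays. For Gapdh, 3' probes read 0.707 to 0.740 times the 5' probes, a check of RNA integrity, and for Actb 1.28 to 1.55 times, highest in p62-EGFP tumor 2. Sqstm1, the gene of p62, read 1433 and 1688 in p62-EGFP tumors 1 and 2, against 976 and 1156 in EGFP tumors 1 and 2, and did not pass the test (log2 difference 0.54, limma, Benjamini-Hochberg adjusted p = 0.235). The probe set is not known to detect the p62-EGFP transgene. Sqstm1 is a chromosome 11 gene. Differences on that chromosome centred on 0.30 (log2, median over 697 tested genes), and how much of this shift enters the Sqstm1 value was not tested. All 3 Atg5 probe sets gave signal above the low-signal filter in tumors labelled ATG5-/-: the brightest, 1415684_at, read 91.3 and 93.9 in p62-EGFP tumors against 118.7 and 102.8 in EGFP tumors, 1418236_s_at 64.7 and 63.6 against 73.2 and 89.4, and 1418235_at 49.2 and 40.2 against 56.5 and 51.2. The sources used here do not say whether these probes lie in the deleted part, and the host's own cells carry Atg5, so the values do not check the deletion. Epithelial transcripts were present in all tumors: Krt18, a keratin, read 545 and 627 in p62-EGFP tumors against 729.6 and 254 in EGFP tumors, and the adhesion gene Epcam 361 and 660.3 against 351 and 109. The kidney lineage genes Pax8 and Cdh16 and the keratin gene Krt7 did not rise above 11.2 in any tumor.

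EGFP tumor 2 stood apart from the other tumors by its leukocyte transcripts. Over 11 macrophage and leukocyte markers on the array the summed signal was 1712 and 1843 in the p62-EGFP tumors and 951 and 7989 in EGFP tumors 1 and 2, with 11 of 11 markers highest in EGFP tumor 2. Over 9 NK and T cell markers it was 77.0 and 85.3 in the p62-EGFP tumors and 80.5 and 3295 in the EGFP tumors, with 9 of 9 highest in EGFP tumor 2. The granzyme gene Gzmb was near 0 in the other 3 tumors, at 1.1 and 6.2 in the p62-EGFP tumors and 1.5 in EGFP tumor 1, against 985 in EGFP tumor 2. Summed kidney epithelial markers, 8 genes, were lowest in that tumor, at 1449 and 2103 in p62-EGFP tumors against 1458 and 699 in EGFP tumors. Not every marker followed the sum: Krt19 read 93.6 in EGFP tumor 1 and 156 in EGFP tumor 2, and the dim Pax8 4.7 and 6.4. Skeletal muscle transcripts, 8 genes, were high in p62-EGFP tumor 1, at 3605 and 55.1 in p62-EGFP tumors against 42.7 and 684 in EGFP tumors. Endothelial markers, 8 genes, summed to 187 and 242 against 377 and 533, and mast cell markers, 7 genes, to 185 and 122 against 689.7 and 509.8. Fibroblast markers, 6 genes, summed to 2015 and 2773 against 949.7 and 3226, and adipocyte markers, 3 genes, to 231.5 and 756 against 705 and 1313. Most of the adipocyte sum was Fabp4, at 219.8 and 691 in p62-EGFP tumors against 699 and 1303.5 in EGFP tumors. Adipoq went the other way, at 11.3 and 63.7 against 5.5 and 8.8, and Lep was at most 1.4 in any tumor. Markers of B cells (4 genes), neutrophils (5 genes) and erythroid cells (2 genes) summed to at most 71.0 in any tumor. In these bulk tumors, fewer cells of a type and less RNA per cell cannot be told apart.

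Bcl-2 family proteins meet at the outer mitochondrial membrane. BH3-only proteins sense damage and bind the pro-survival members, the effectors Bax and Bak1 are held in check by the pro-survival members, and once freed they form pores that release cytochrome c and start the caspase cascade. Overexpressed Bcl-2 blocks this step, and Bcl-2 also binds Beclin 1, the product of Becn1, which links the family to autophagy. Many members are set by transcript level and by fast protein turnover, Mcl1 and Bcl2l11 among them, and an array reads only the transcript.

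All 6 Mcl1 probe sets were higher, and all 5 Bcl2l11 probe sets lower, in EGFP tumor 2 than in EGFP tumor 1, and the 250 bases before a RefSeq transcript start of each are shown for that reason (GRCm38.p6, plus strand, 5′ to 3′). The Mcl1 window lies at chr3:95658471-95658720 and the Bcl2l11 window, the more upstream of its 2 in the RefSeq table, at chr2:128125788-128126037. Capitals mark GTAAACA, a site bound by FOXO transcription factors.
Mcl1: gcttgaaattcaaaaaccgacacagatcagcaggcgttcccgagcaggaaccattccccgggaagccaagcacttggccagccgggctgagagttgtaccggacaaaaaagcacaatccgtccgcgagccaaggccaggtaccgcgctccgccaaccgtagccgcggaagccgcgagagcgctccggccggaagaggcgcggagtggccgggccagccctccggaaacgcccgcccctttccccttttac
Bcl2l11: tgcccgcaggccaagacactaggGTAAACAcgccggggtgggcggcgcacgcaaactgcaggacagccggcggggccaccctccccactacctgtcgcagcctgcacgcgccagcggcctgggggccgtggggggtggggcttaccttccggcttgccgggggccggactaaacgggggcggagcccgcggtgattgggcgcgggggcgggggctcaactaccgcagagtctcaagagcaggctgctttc
All 10 genes matched the table, with 14 windows, and 4 motifs were searched on both strands, the FOXO site having been chosen after the windows had been seen. GTAAACA, which overlaps none of the other 3 motifs, was found in the Bcl2l11 window shown, 227 to 221 bases before the start, and in no other window of the members; 3.17% of all 32851 windows hold it. CACGTG, the E-box, was found in the Bax window, 9 to 4 bases before the start, and is held by 6.02% of windows. The cyclic AMP response element TGACGTCA and the AP-1 site TGANTCA, held by 1.55% and 6.75% of windows, were not among the letters of the members' windows. A match describes these letters and was not tested as a site. Foxo3, a FOXO factor known to induce Bcl2l11, read 122 and 102 in p62-EGFP tumors against 109.9 and 78.2 in EGFP tumors, so the groups overlapped; it was picked for naming after its values were seen.

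No Bcl-2 family probe set changed past the threshold between p62-EGFP and EGFP tumors. The test was limma on log2(signal + 16) over all 13576 probe sets whose mean signal reached the 40th percentile (about 32.7), and 20 of the 27 member probe sets from 8 genes entered it. The count of members past an adjusted p of 0.05 was 0 of 20, where 0.0884% of all tested probe sets passed. At an unadjusted p below 0.05 the count was 1 of 20, that of Bak1, where 14.5% of all tested probe sets did so. The groups did not overlap for 8 of the 20: p62-EGFP was higher for 2 (26.7% of all tested probe sets) and lower for 6 (22.2% of all), and the groups overlapped for 12. Log2 differences of the 20 ran from -0.52 to 0.30, with 16 negative and 4 positive, and limma adjusted p-values from 0.333 to 0.974. These counts repeat genes: all 6 probe sets of Mcl1 and all 5 of Bcl2l11 were among the negative ones. The median over all 13576 tested probe sets was 0.02. Taken gene by gene with the brightest probe set, Bcl2l1 (0.02), Bcl2l2 (0.20) and Bok (0.30) were positive and the other tested members negative. By the brightest probe set of each gene, the median log2 difference was -0.18 over the 8 tested members, against 0.01 over all 7847 genes tested. It was -0.03 without EGFP tumor 2 and -0.09 without p62-EGFP tumor 2. With the filter left out it was -0.21 over 9 genes, against 0.03 over all genes.

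**Figure D1:**
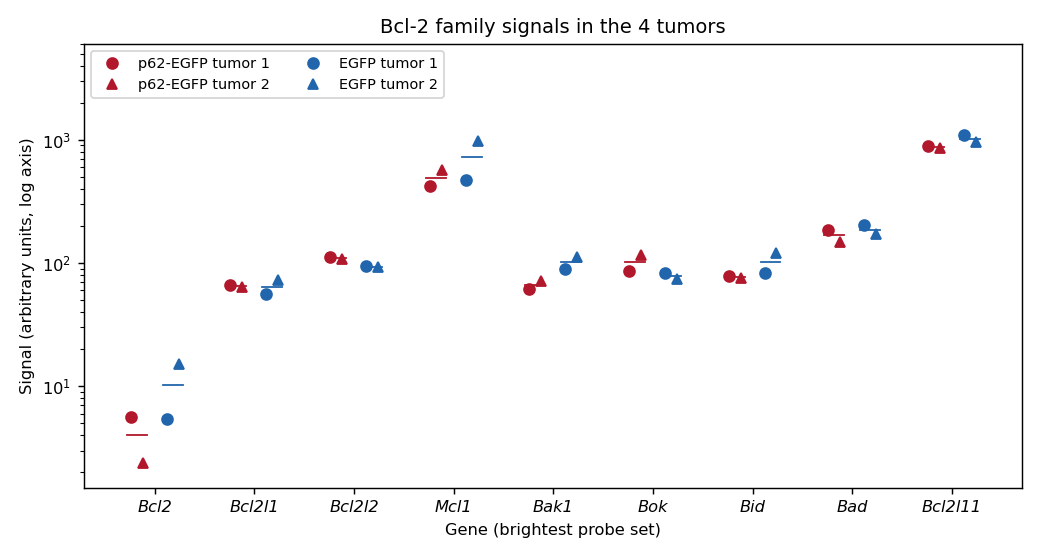
Signal of the brightest probe set of each of the 9 measured genes in every tumor, on a log axis in arbitrary units. Points are single tumors (red p62-EGFP, blue EGFP; circles tumor 1, triangles tumor 2) and short lines are group means of 2 tumors. Levels of different genes come from different probes and are not to be set against each other. Bak1 is lower in both p62-EGFP tumors, and Mcl1 is highest in EGFP tumor 2 at 973.

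Among the pro-survival genes, Mcl1 was high in EGFP tumor 2 and close to even in the other 3 tumors. Mcl1 encodes a short-lived protein that holds Bak1 and binds Bcl2l11. Its brightest probe set, 1448503_at, read 419 and 568.5 in p62-EGFP tumors 1 and 2, against 473 and 973 in EGFP tumors 1 and 2. EGFP tumor 1 lay between the p62-EGFP tumors, so the groups overlapped. The log2 difference was -0.46 (SE 0.36, 95% interval -1.37 to 0.44, limma adjusted p = 0.576). A second probe set, 1437527_x_at, read 501.2 and 500.9 against 468 and 922, and the dimmest, 1416881_at, 154.5 and 183 against 175 and 352. All 6 Mcl1 probe sets were highest in EGFP tumor 2, by 1.85-fold to 2.06-fold over EGFP tumor 1. In contrast, the p62-EGFP tumors differed from each other by -0.01 to 0.42 on the log2 scale. Of the 6, 3 carry the suffix x, the maker's mark for probes that may also bind related sequences. On those 3 EGFP tumor 1 was the lowest of the 4 tumors. It was also the lowest on 1416880_at, which lacks the suffix, at 374 and 427 in p62-EGFP tumors against 368 and 683 in EGFP tumors. On 1448503_at and 1416881_at p62-EGFP tumor 1 was the lowest.

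The Mcl1 difference rested on EGFP tumor 2. Without that tumor the log2 difference of the 6 probe sets lay between -0.05 and 0.22, positive for 5 of them (limma adjusted p = 0.412 to 0.903); 0 of the 19 member probe sets tested in that setting passed, where 9.53% of all did. Without EGFP tumor 1 it lay between -0.998 and -0.67, and all 6 passed (limma adjusted p = 0.00350 to 0.0181), where 20.9% of all tested probe sets passed in the same setting. Such fits estimate the spread within the p62-EGFP pair and assume that the lone EGFP tumor varies like it. EGFP tumor 2 was also the tumor with macrophage and leukocyte markers summing to 7989, against 951 in EGFP tumor 1, and their part in the Mcl1 signal was not tested. Of all 13576 tested probe sets 22.9% were highest in EGFP tumor 2, and 10 of the 20 member probe sets were, 6 of them from Mcl1. By distance between centred log2 profiles over the 4 tumors, the genes closest to Mcl1 1448503_at among 7846 were Spsb1 (distance 0.07), the oncostatin M receptor gene Osmr (0.08) and the collagen gene Col6a1 (0.09). Osmr read 75.4 and 113 in p62-EGFP tumors against 84.7 and 198 in EGFP tumors. With 4 tumors such likeness is loose: 302 genes lay within a distance of 0.5.

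**Figure D2:**
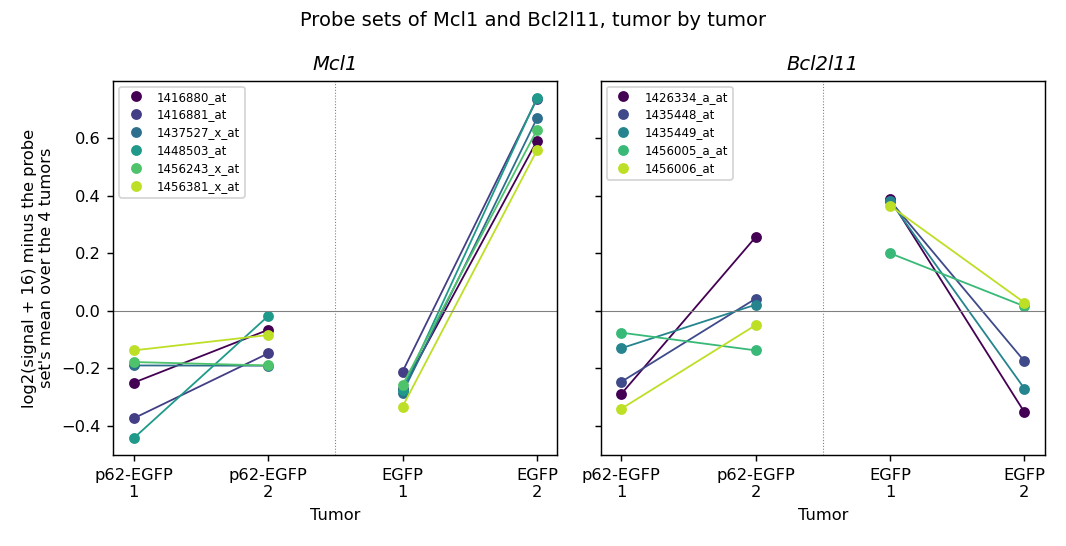
Each line pair is 1 probe set of Mcl1 (left, 6 probe sets) or Bcl2l11 (right, 5 probe sets), as log2(signal + 16) minus its own mean over the 4 tumors; lines join the tumors of a group. All Mcl1 probe sets peak in EGFP tumor 2 and all Bcl2l11 probe sets peak in EGFP tumor 1.

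Bcl2l1, which encodes Bcl-xL, showed little separation between the groups. Its brighter tested probe set, 1420888_at, read 66.4 and 63.4 in p62-EGFP tumors against 56.0 and 72.6 in EGFP tumors. The p62-EGFP tumors lay inside the range of the EGFP tumors, with a log2 difference of 0.02 (95% interval -0.47 to 0.51, limma adjusted p = 0.974). The interval still allows a change of that size in either direction. The second tested probe set, 1420887_a_at, read 41.0 and 37.5 against 41.2 and 28.2 (log2 difference 0.14, limma adjusted p = 0.798). Without EGFP tumor 1 the first was -0.13 and without EGFP tumor 2 the second was -0.05, so neither sign was kept in every setting. A further pair of Bcl2l1 probe sets was too dim to be tested, at 21.0 or less in every tumor.

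Bcl2l2, the gene of Bcl-w, had slightly higher values in the p62-EGFP tumors, a difference that did not pass the test. Its one tested probe set read 111 and 108 in p62-EGFP tumors against 94.5 and 92.8 in EGFP tumors. The tumors of a group were close to each other and the groups did not overlap. The log2 difference was 0.20 (SE 0.16, 95% interval -0.21 to 0.60, limma adjusted p = 0.592), and it lay between 0.18 and 0.22 with any 1 tumor left out and was 0.31 with chromosome medians subtracted. The remaining 3 Bcl2l2 probe sets were dim and disagreed in order. One, 1451029_at, read 11.2 and 5.1 in p62-EGFP tumors against 14.6 and 11.0 in EGFP tumors, and another, 1430454_x_at, 2.6 and 13.8 against 1.3 and 2.0.

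The Bcl2 probe set was dim in all tumors even though the cells are labelled as expressing Bcl-2. It read 5.6 and 2.4 in p62-EGFP tumors against 5.4 and 15.2 in EGFP tumors, at the 19.5th percentile of all probe sets by mean, and was not tested. The sources used here do not say whether its probes match the construct, so the value does not measure the supplied Bcl-2. EGFP tumor 2, with the highest Bcl2 value, was also the tumor with the most leukocyte signal, and the part of leukocytes in it was not tested. Over all 7 member probe sets below the filter the signals ran from 0.5 to 21.0.

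Of the effectors, Bak1 was lower in both p62-EGFP tumors and had the smallest p of the family with all 4 tumors and the settings above. Bak1 encodes an effector that sits in the outer mitochondrial membrane and is held there by Mcl-1 and Bcl-xL. Probe set 1418991_at read 61.2 and 71.5 in p62-EGFP tumors, against 90.0 and 112.7 in EGFP tumors. The groups did not overlap, and the means were 66.4 ± 7.28 and 101 ± 16.1 (SD, n = 2 tumors each). The log2 difference was -0.51 (SE 0.19, 95% interval -0.996 to -0.02), with an unadjusted p of 0.0446 and a limma adjusted p = 0.333. It stayed negative with each tumor left out, between -0.65 (without EGFP tumor 1) and -0.37 (without EGFP tumor 2). EGFP tumor 2, highest on this probe set, was also highest in the leukocyte markers, and their part in the Bak1 signal was not tested. The second Bak1 probe set, 1425716_s_at, was dim, read 12.7 and 14.1 against 20.2 and 12.7, and was not tested. Bak1 lies on chromosome 17, whose 389 tested genes had a median log2 difference of -0.12. For Bak1 the unadjusted p was above 0.05 with quantile normalization (0.0545), median centring (0.0534), no filter (0.0613) and the replicate block (0.0585). It was 0.122 with the probe sets of a gene averaged (log2 difference -0.32). With chromosome medians subtracted on each array it was 0.191 (log2 difference -0.35), and Bcl2l11 1456005_a_at and 1456006_at then had the smaller unadjusted p-values, 0.03 and 0.0417 (limma adjusted p = 0.289 and 0.319).

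Bok, an effector-like gene whose product can act without being held by the pro-survival proteins, was higher in both p62-EGFP tumors. It read 86.2 and 116 in p62-EGFP tumors against 82.4 and 74.7 in EGFP tumors. The gap between the groups was small, since p62-EGFP tumor 1 lay only just above EGFP tumor 1. The log2 difference was 0.30 (SE 0.20, 95% interval -0.21 to 0.81, limma adjusted p = 0.527). Without p62-EGFP tumor 2 it was 0.11 and without p62-EGFP tumor 1 it was 0.49, so p62-EGFP tumor 2 carried most of it. Bok lies on chromosome 1, whose 429 tested genes had a median of 0.15, and with chromosome medians subtracted the difference was 0.16.

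**Figure D3:**
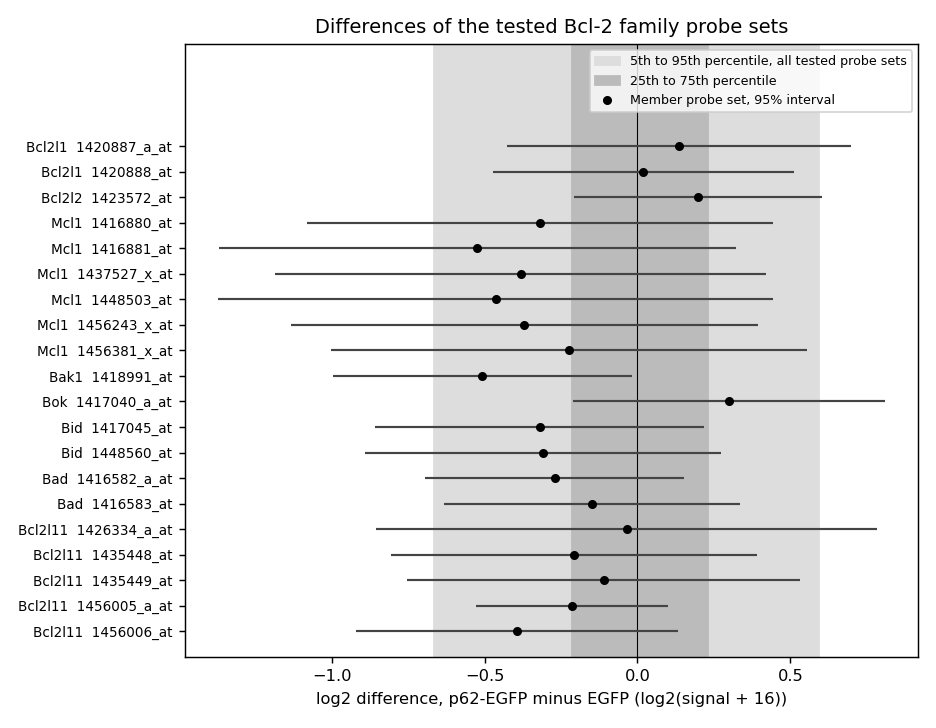
Log2 difference (p62-EGFP minus EGFP) of each of the 20 tested member probe sets with its 95% interval from limma. Light and dark grey bands give the 5th to 95th and the 25th to 75th percentile of all 13576 tested probe sets, -0.66 to 0.59 and -0.21 to 0.23; only the interval of Bak1 leaves out 0.

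The BH3-only gene Bid was lower in both p62-EGFP tumors on both of its probe sets. Bid is cut by caspase-8 and carries the death receptor signal to the mitochondria. Its brighter probe set, 1417045_at, read 78.9 and 75.6 in p62-EGFP tumors against 83.7 and 119.9 in EGFP tumors, and 1448560_at read 35.3 and 25.3 against 35.6 and 47.0. The groups were apart by a narrow margin, and EGFP tumor 2 was highest on both. The log2 differences were -0.32 and -0.31 (SE 0.21 and 0.23, limma adjusted p = 0.522 and 0.562). With chromosome medians subtracted they were -0.18 and -0.17. Without EGFP tumor 2 the first was -0.097, and the second no longer passed the filter. The leukocyte markers were also highest in EGFP tumor 2, and their part in the Bid signal was not tested.

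Bad, whose product binds Bcl-xL and Bcl-2 and is switched off by phosphorylation when growth factors are present, was lower by a small margin. Probe set 1416582_a_at read 152 and 131 in p62-EGFP tumors against 179 and 168.5 in EGFP tumors. These groups did not overlap (log2 difference -0.27, SE 0.17, limma adjusted p = 0.493). The brighter one, 1416583_at, read 186 and 149 against 203 and 171, and its groups overlapped (log2 difference -0.15, SE 0.19, limma adjusted p = 0.739). Without p62-EGFP tumor 2 that difference was 0.0001, and with the median level of the chromosome 19 genes subtracted on each array it was 0.0113, against -0.11 for 1416582_a_at in the same setting.

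Bcl2l11, which encodes Bim, a BH3-only protein that binds every pro-survival member, was highest in EGFP tumor 1 on all 5 of its probe sets. The brightest, 1456005_a_at, read 893 and 855 in p62-EGFP tumors against 1085 and 953 in EGFP tumors, and 1456006_at read 90.5 and 114 against 158 and 122. These were the pair of probe sets whose groups did not overlap, with p62-EGFP lower. Their log2 differences were -0.21 and -0.39 (SE 0.12 and 0.21, limma adjusted p = 0.466 and 0.435). On the other 3 probe sets the groups overlapped, because EGFP tumor 2 fell below 1 or both p62-EGFP tumors. Probe set 1435448_at read 342 and 421 in p62-EGFP tumors against 538 and 360.2 in EGFP tumors. In the same way 1435449_at read 196 and 219.7 against 287 and 177, and 1426334_a_at 73.8 and 115 against 128 and 70.0. Log2 differences of these 3 were -0.21, -0.11 and -0.04.

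The Bcl2l11 differences turned on the choice of EGFP tumor. Without EGFP tumor 1 they lay between -0.22 and 0.34, positive for 3 probe sets and negative for 2 (limma adjusted p = 0.341 to 0.810). Without EGFP tumor 2 all 5 were negative, between -0.56 and -0.31 (limma adjusted p = 0.0853 to 0.277). Without p62-EGFP tumor 1, 1426334_a_at was 0.24. EGFP tumor 2 was 0.55-fold to 0.88-fold of EGFP tumor 1 over the 5 probe sets, where it was 1.85-fold to 2.06-fold for the 6 of Mcl1. The difference between the EGFP tumors had an SD of 0.591 (log2) over the 20 member probe sets and 0.604 over all tested probe sets. That between the p62-EGFP tumors had an SD of 0.234 over the members and 0.273 over all. By the median absolute log2 difference the member probe sets stood higher. It was 0.41 over the member probe sets and 0.27 over all between the EGFP tumors, and 0.18 and 0.14 between the p62-EGFP tumors. These 20 probe sets repeat genes, with 6 from Mcl1 and 5 from Bcl2l11, so the values are not spreads over genes of the family. The epithelial marker sum was 1458 in EGFP tumor 1 and 699 in EGFP tumor 2, while Krt19 went the other way. The part of epithelial cells in the Bcl2l11 order was not tested.

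**Figure D4:**
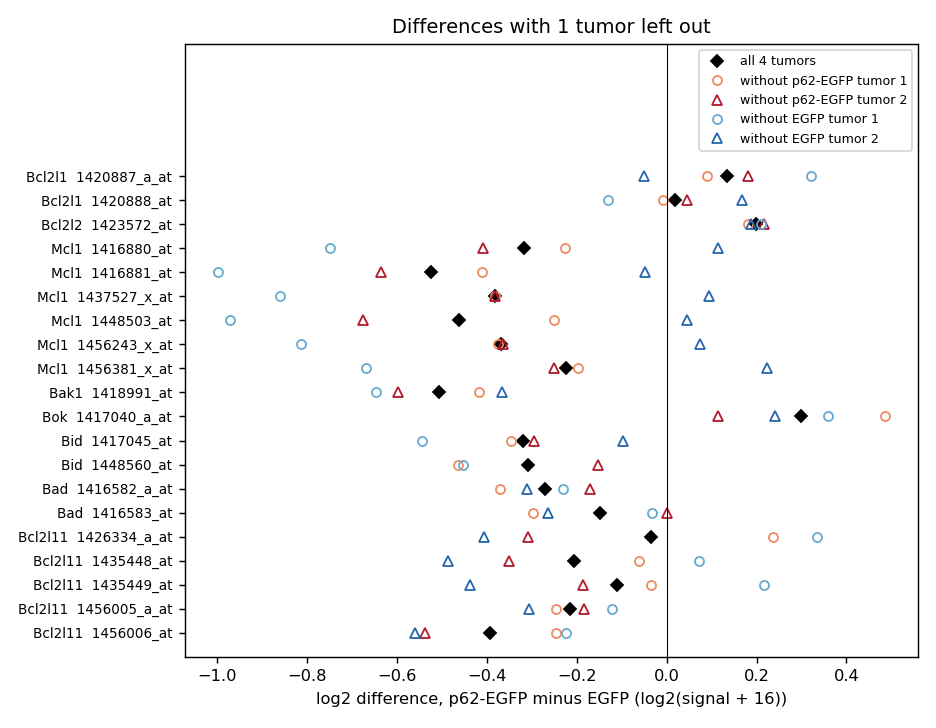
Log2 difference (p62-EGFP minus EGFP) of the 20 tested member probe sets with all 4 tumors (black diamonds) and with each tumor left out in turn (open symbols, coloured by the group of the omitted tumor). Mcl1 spreads from -0.998 without EGFP tumor 1 to 0.22 without EGFP tumor 2, whereas Bcl2l2 stays between 0.18 and 0.22.

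Other genes of the apoptosis pathway were taken from 5 lists, with 49 of 59 genes on the array by a single-symbol probe set and 41 tested. None of the 41 passed the limma test after adjustment, and 8 had an unadjusted p below 0.05, where 14.8% of all 7847 genes did. Without overlap, p62-EGFP was higher for 6 of the 41 (26.4% of all genes) and lower for 13 (22.0% of all). The median log2 difference was -0.04. The smallest adjusted p was 0.189, for Vdac1.

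Among other Bcl-2 family genes 5 of 17 were tested, with a median of 0.07 and none past the adjusted threshold. Bnip3, a hypoxia-induced mitochondrial protein with a BH3-like region, read 342 and 396 in p62-EGFP tumors against 226 and 172 in EGFP tumors (log2 difference 0.85, limma adjusted p = 0.219). Its groups did not overlap. Pmaip1, the BH3-only gene of Noxa, a partner of Mcl-1, read 241 and 278.5 against 285 and 199. Bnip2 read 364 and 306 against 314 and 403, and Bcl2l13 191 and 175 against 226 and 167, both with overlapping groups.

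Caspase and apoptosome genes had a median of -0.18 over 9 tested genes, with 4 lower in p62-EGFP without overlap (22.0% of all genes were), 0 higher (26.4% of all genes were) and none past the adjusted threshold. Casp9, the initiator caspase of the mitochondrial route, read 56.5 and 62.1 in p62-EGFP tumors against 80.1 and 81.7 in EGFP tumors (limma adjusted p = 0.397). Casp8, which cuts Bid, read 192 and 239 against 244 and 369 (limma adjusted p = 0.440). Dffa, the inhibitor and chaperone of the apoptotic nuclease, read 208 and 228 against 253 and 243, while its partner Dffb read 41.7 and 71.4 against 71.6 and 67.9.

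Inhibitor of apoptosis genes and their antagonists had a median of 0.20 over 7 tested genes, and none passed the adjusted threshold. Birc5, the gene of survivin, a mitotic protein of this family, read 1210 and 1142 in p62-EGFP tumors against 815 and 748 in EGFP tumors (log2 difference 0.58, limma adjusted p = 0.1997). Birc6 read 192 and 211 against 177 and 139.7. Birc3, an NF-kB target, stood out in EGFP tumor 2 alone, at 72.3 and 58 against 52.9 and 332. Diablo, whose product displaces caspase inhibitors, read 393 and 313 against 337 and 273, with overlapping groups.

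The death receptor branch had a median of -0.50 over 5 tested genes, against 0.01 over all genes. That median is the value of Fas alone, whose groups overlapped. With the filter left out the median was -0.34 over 6 genes, against 0.03 over all genes. Without overlap, p62-EGFP was lower for 3 of the 5, as it was for 22.0% of all genes, and none passed the adjusted threshold. Tnfrsf1a, a TNF receptor, read 243 and 258 in p62-EGFP tumors against 392 and 415 in EGFP tumors (limma adjusted p = 0.219). Cflar, an inhibitor of caspase-8, read 71.5 and 64.9 against 72.3 and 156, and the death receptor gene Fas 31.0 and 30.9 against 29.2 and 81.5. Both were highest in EGFP tumor 2, where the leukocyte markers were highest, and the part of leukocytes was not tested. Tradd, an adaptor of the TNF receptor, read 91.7 and 88.6 against 93.3 and 115.

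Partners and membrane targets of the family had a median of -0.04 over 15 tested genes, with 3 higher in p62-EGFP without overlap (26.4% of all genes were), 6 lower (22.0% of all genes were) and none past the adjusted threshold. Vdac1, a channel of the outer mitochondrial membrane, read 1368 and 1404 in p62-EGFP tumors against 929 and 953 in EGFP tumors (log2 difference 0.55). Vdac2 and Vdac3 of the same list, picked for naming after their values were seen, went the other way without overlap. Vdac2 read 563 and 588 against 607 and 830, and Vdac3 851 and 827 against 1076 and 1004 (log2 difference -0.29 and -0.30, limma adjusted p = 0.496 and 0.328). The calcium channel genes Itpr2 and Itpr3, whose products Bcl-2 binds at the endoplasmic reticulum, read 20.3 and 25 against 41.9 and 59.6 and 21.5 and 42.1 against 76.2 and 58.3 (limma adjusted p = 0.263 and 0.301). Tmbim6, the Bax inhibitor 1 gene, read 616 and 806 against 1021 and 1043 (limma adjusted p = 0.265). Becn1, picked for naming after its values were seen, read 469.5 and 703 against 302 and 427, with a log2 difference of 0.66 (limma adjusted p = 0.347). Vdac1, Birc5 and Becn1 lie on chromosome 11, whose 697 tested genes had a median log2 difference of 0.30, and the share of that shift in their values was not tested.

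**Figure D5:**
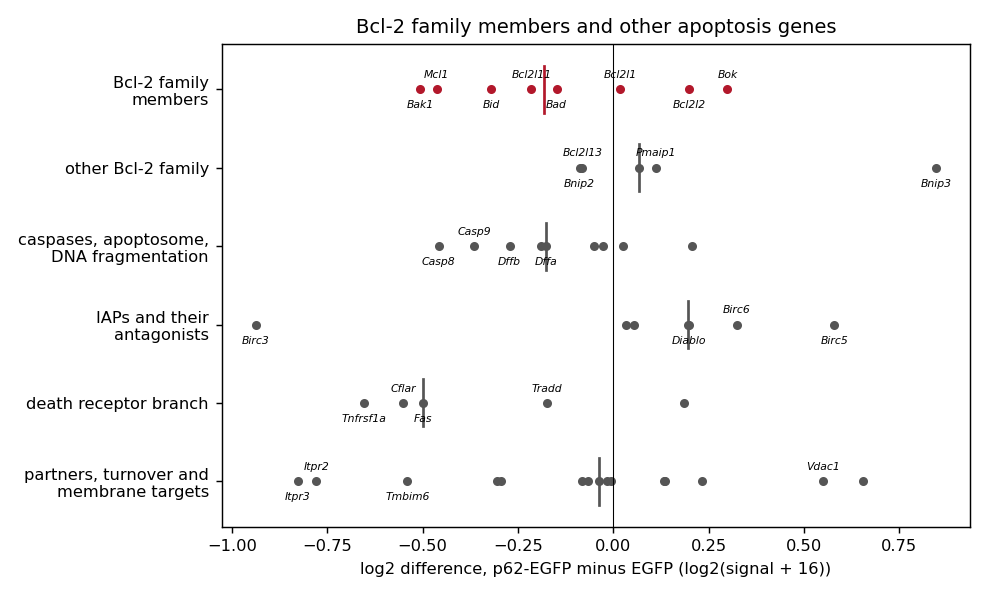
Log2 difference (p62-EGFP minus EGFP) of the 8 tested Bcl-2 family genes (red) and of the 41 tested genes in the 5 other lists (grey), each gene by its brightest probe set. Vertical ticks are medians, -0.18 for the family; Bnip3 lies farthest to the right at 0.85 and Birc3 farthest to the left at -0.94.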

How the data were processed

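Values were deposited as 1-colour signal intensities per probe set on a linear scale; MAS5 is named in the submitters' processing notes, with no version or settings in the sources used here. All 4 arrays had a mean of 150.04 once 2% was trimmed from both ends, and the authors' intensities were therefore kept. Of 22690 rows, 64 controls were left out. Symbols came from the array annotation supplied with the data; 20380 probe sets had 1 symbol, 691 several and 1555 none, and 20351 matched the GRCm38.p6 gene table, used for chromosomes only. Promoter windows were taken from RefSeq.

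Signals were transformed as log2(signal + 16), filtered at the 40th percentile of the mean and compared in R 4.3.3 with limma 3.58.1 (lmFit, then eBayes with an intensity trend), as two-sided tests adjusted by Benjamini-Hochberg over 13576 probe sets. A fold change on this scale understates changes of dim probe sets. Tables and figures used Python 3.11.15. The 4 arrays limit the precision, and an exact two-sided test of 1 value, 2 against 2, cannot go below p = 0.333. The p-values rest on the spread within each pair of tumors, moderated by limma over all tested probe sets. That spread may be technical, and the EGFP tumors also differed in leukocyte markers. Genes named are all members, up to 4 genes of smallest p in each pathway list, and others said to be picked afterwards. Members and lists were chosen with earlier results of these data known.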

Additional observations from a re-analysis of the deposited data

How the results depend on the processing

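With all 4 tumors kept, 10 alternatives were run for scaling, pseudocount, filter, variance model, pairing, probe set averaging and chromosome medians. Under each, 0 member probe sets and 0 genes of the other apoptosis lists passed the limma adjusted threshold. The filter at the 60th percentile left only 13 member probe sets from 4 genes. Bak1, Bok, Bid and Bcl2l1 were not tested in that setting. The count over all probe sets was 12, and was 6 with no filter, 7 with a filter at the 60th percentile, 1 with the probe sets of a gene averaged and 37 with the replicate block. The replicate numbers share only a number in the labels; deviations of same-numbered tumors correlated at 0.08 across probe sets, and the block changed no member's call. Averaging the probe sets moved the member median to -0.26 over 6 genes that passed the filter. Bcl2l1 and Bcl2l2, both positive by their brightest probe sets, were not tested in that setting, so the medians cover different genes. Subtracting chromosome medians moved the median of the other apoptosis lists to 0.0237. That subtraction takes each array's median level over a chromosome's tested genes, so its shift need not equal the chromosome's median difference; it also moved Bcl2l1 1420887_a_at to 0.0463, Bcl2l11 1426334_a_at to -0.12 and 1435449_at to -0.20. Signs turned for Bcl2l1 1420888_at (-0.0707) and Bad 1416583_at (0.0113) with chromosome medians subtracted, and for Bcl2l11 1426334_a_at with quantile normalization (0.0057) and median centring (0.0027).

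With 1 tumor left out, the count over all probe sets ran from 0 (without either p62-EGFP tumor) to 2835 (without EGFP tumor 1; 1294 without EGFP tumor 2). The numbers of member probe sets and of other apoptosis genes called also moved. They are not read as a result about these genes, since 1 group then holds a lone tumor. The member median ran from -0.248 to -0.026 and that of the other lists from -0.0703 to 0.014. Log2 differences that changed sign ran as follows: Bcl2l1 1420887_a_at from -0.0508 to 0.32 and 1420888_at from -0.13 to 0.17. Those of Bad 1416583_at ran from -0.30 to 0.0001. For Mcl1, 1416880_at ran from -0.75 to 0.11, 1437527_x_at from -0.86 to 0.095, 1448503_at from -0.97 to 0.0446, 1456243_x_at from -0.81 to 0.074 and 1456381_x_at from -0.67 to 0.22. For Bcl2l11, 1426334_a_at ran from -0.41 to 0.34, 1435448_at from -0.49 to 0.0724 and 1435449_at from -0.44 to 0.22. The cause of these changes was not tested beyond the tumor left out. No detection calls were used, so dim probe sets have no stated background.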
